A study of Mus musculus with 25 samples.

Results

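A set of 8 RNAs that are not translated was followed through 25 mouse melanomas: Rn7s1 and Rn7s2 (copies of 7SL RNA), Rn7sk, Rpph1, Rmrp, Gm26917, Malat1 and Neat1. They were picked by symbol from 55450 genes in the count table, and all 8 were found, on 9 rows, because Rmrp has 2 overlapping gene models. The RNAs were chosen from these same libraries, for the large share of the counts that they took and for how that share differed between the groups. Their shares, levels and ratios are therefore given as a description, with no test. Their rows also entered the fit over all genes, and nothing is read from their calls. Results of that fit are given for the genes of their protein partners, of the polymerases that make them and of other non-coding RNAs.

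The tumours grew from B2905 cells, a mouse melanoma line also named M4, implanted in C57BL/6 mice, and antibody was given at 10 mg/kg from an average tumour size of 75 mm3. The 5 controls received an isotype IgG2b antibody. The other 20 received an antibody to CTLA-4, an inhibitory receptor of T cells, and were classed from their size over the 10 to 11 days that followed the end of dosing, as 8 responders (smaller), 6 stable tumours (no change) and 6 non-responders (larger). All tumours came from the same line and strain, each is 1 library, and no size is given for single tumours. The labels state neither sex nor age of the mice. The library kit named in the labels is one for total RNA, while the molecule is labelled as polyA RNA; most of the small RNAs described here have no poly(A) tail.

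Most of these RNAs work in particles with proteins. 7SL RNA is the scaffold of the signal recognition particle (SRP), which brings ribosomes making secreted proteins to the endoplasmic reticulum. Rn7sk, or 7SK RNA, holds the elongation kinase P-TEFb inactive; Rpph1 is the catalytic RNA of RNase P, which trims the leading end of tRNAs, and Rmrp is the RNA of the related RNase MRP, which acts on ribosomal RNA precursors. RNA polymerase III makes these small RNAs. Malat1 is a long RNA of nuclear speckles and Neat1 the scaffold of paraspeckles; both are made by RNA polymerase II and are cut at their 3′ ends by RNase P. Gm26917 is annotated as a long non-coding RNA beside ribosomal RNA sequence.

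The sequences matter here because they decide which counts can be told apart. Rn7s1 (chr12:69159295-69159594, plus strand) and Rn7s2 (chr12:69361182-69361481, minus strand) lie 201587 bases apart in GRCm38, and their annotated transcripts were identical over all 300 bases, with 0 mismatches. The 2 miRNA models annotated over Rn7s1, at its positions 143 to 212 and 224 to 300, held few counts, taking 445 and 3088 in all 25 tumours, beside 4624398 for Rn7s1. A count for Rn7s1 rather than Rn7s2 thus rests on no base of the RNA itself, and the copies were summed as 7SL below. The sequence of Rmrp (chr4:43492783-43493063, minus strand) shows the same problem within a gene: the longer model, annotated as a lincRNA, extends the 271 bases of the ribozyme model by 5 bases on each side, shown in capitals.
Rmrp: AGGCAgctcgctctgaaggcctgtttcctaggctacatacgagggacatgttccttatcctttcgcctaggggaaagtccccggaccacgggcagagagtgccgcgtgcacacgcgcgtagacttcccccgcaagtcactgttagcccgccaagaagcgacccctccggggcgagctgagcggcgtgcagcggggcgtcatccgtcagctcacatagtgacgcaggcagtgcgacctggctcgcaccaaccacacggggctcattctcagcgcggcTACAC
The models of Rmrp were summed as well, which leaves 7 RNAs to compare. Both overlap Ccdc107 on the opposite strand, which held 6151 counts in all tumours.

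Rn7sk (chr9:78175303-78175633, minus strand) is an RNA of 331 bases. Its first 110 bases are printed because they carry the GATC motifs (GAUC in the RNA, in capitals) that the P-TEFb inhibitor Hexim1 is known to bind.
Rn7sk: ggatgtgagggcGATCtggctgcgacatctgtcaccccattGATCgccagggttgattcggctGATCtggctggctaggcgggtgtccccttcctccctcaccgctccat
The stretch held 3 copies of GATC, a motif that reads the same on both strands. Of 138029 annotated transcripts of at least 110 bases, 25.5% held the motif in their first 110 bases and 0.427% held 3 or more. Malat1 (chr19:5795690-5802672) and Neat1 (chr19:5824708-5845478) are neighbours on the minus strand of chromosome 19, 22035 bases apart. The stretches below are positions 6596 to 6691 of Malat1 and 20669 to 20771 of Neat1, with a U-rich motif and an A-rich motif in capitals; these are known to pair in a triple helix that protects the 3′ end left by RNase P.
Malat1: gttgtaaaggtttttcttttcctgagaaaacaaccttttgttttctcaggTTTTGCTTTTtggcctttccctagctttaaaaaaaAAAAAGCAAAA
Neat1: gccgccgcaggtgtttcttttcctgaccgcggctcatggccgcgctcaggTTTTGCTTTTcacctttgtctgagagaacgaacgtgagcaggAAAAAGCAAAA
Among 141767 annotated transcripts, searched on the transcribed strand alone, TTTTGCTTTT was followed by AAAAAGCAAAA within 100 bases in 4 (0.00282%), from 3 genes, which were Malat1, Neat1 and Retreg3. Rpph1 (chr14:50807449-50807767, minus strand, 319 bases) overlaps Ccnb1ip1 on the same strand, which held 1073 counts against 2467584 for Rpph1. Gm26917 (chr17:39843013-39846341, plus strand) begins a cluster with the rRNA model CT010467.1, 11 bases away, and Gm42418, 616 bases away.

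Library depth ran from 8.76 M to 34.3 M counts, and the lowest count of any of the 8 RNAs in any tumour was 8412, so counting error is small beside the spread between tumours. Protein-coding genes took between 82.9% and 89.2% of the counts in every control, non-responder and stable tumour. In responders they took 23.8% to 87.0%, with a median of 68.8%. Mitochondrial ribosomal RNA took 1.15% to 14.3% in responders, highest in responder 1, 1.31% to 7.28% in stable tumours and at most 1.06% in controls and non-responders; its part in the results was not tested. Responder 1, at 23.8%, stood apart from all other libraries and responder 5, at 87.0%, was like the other groups. Several results on the 8 RNAs in responders are therefore also given without 1 or both of them. The melanoma marker genes summed to between 11502 and 18228 CPM (counts scaled to an equal total in each library) in controls, between 744 and 14523 in non-responders, 239 to 548 in stable tumours and 114 to 749 in responders. None of the 7 was at 0 in all tumours. Endothelial markers had a median of 143 CPM in controls and 60.2 in responders, and leukocyte markers a median of 244 in controls, 1356 in stable tumours and 857 in responders. All marker values were scaled to total counts, so the low protein-coding share of most responders also lowers them there. In bulk tissue, fewer cells of a type and less RNA per cell cannot be told apart, and the part of cell composition in what follows was not tested. Library numbers in the labels ran group by group, so library order and group cannot be told apart.

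7SL RNA, the SRP scaffold, took more of the counts than any of the other RNAs in 24 of 25 libraries. It held 4.17%, 5.10%, 4.52%, 4.20% and 4.08% of the counts in the 5 controls. In non-responders its share ran from 3.27% through a median of 4.74% to 6.03%, and in stable tumours from 1.48% through 4.44% to 6.05%. In responders it ran from 5.09% through 13.2% to 47.0%. Thus 7 of 8 responders lay above every other tumour, and responder 5 lay within the range of the other groups. The mean was 17.7% ± 13.1 (SD, n = 8) in responders and 4.77% ± 1.08 (SD, n = 6) in non-responders, and 15.0% ± 5.45 (SD, n = 6) in responders without responders 1 and 5.

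A share falls when another RNA rises, so counts were also set against the protein-coding counts of the same library. By that measure 7SL stood between 46.2 and 59.1 counts per 1000 protein-coding counts in controls, at 37.0 to 72.7 in non-responders and at 17.2 to 71.4 in stable tumours. Responders ran from 58.5 through a median of 189 to 1973, the last in responder 1, where 7SL counts outnumbered all protein-coding counts. The responder mean was 7.72 times the non-responder mean with all tumours, 3.76 times without responder 1 and 4.21 times without responders 1 and 5. The lowest value was that of stable 5, a tumour that was also lowest for Rpph1 and Rmrp.

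Rn7sk, the RNA that restrains P-TEFb, did not follow 7SL. Its share was 3.24%, 3.06%, 2.98%, 3.10% and 2.73% in the controls, 2.62% through 3.24% to 3.82% in non-responders, 1.28% through 2.63% to 2.94% in stable tumours and 0.836% through 2.36% to 2.69% in responders. Of the 8 responders, 7 had a share under that of every non-responder. Set against protein-coding counts, the gap largely closed: the means were 34.6 ± 2.26 (SD, n = 5) counts per 1000 in controls, 37.7 ± 6.43 (SD, n = 6) in non-responders and 34.9 ± 4.17 (SD, n = 8) in responders. Responder 1, where 7SL was highest, had 35.1. The range over all 25 tumours was 3.12-fold for Rn7sk, against 115-fold for 7SL. The lowest tumours by this measure were stable 3, with 14.4, and stable 5, with 20.6; the stable mean was 27.3 ± 8.09 (SD, n = 6). The fitted log2 fold change of Rn7sk between responders and non-responders was -0.24 ± 0.19 (SE), and it stayed below 0 under each scaling tried.

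Rpph1 and Rmrp, the RNAs of the related ribonucleases, lay between these patterns. Rpph1 held 0.519%, 0.524%, 0.578%, 0.517% and 0.448% of the counts in controls and Rmrp 0.452%, 0.428%, 0.420%, 0.348% and 0.391%. Per 1000 protein-coding counts, Rpph1 ran from 5.43 through 6.76 to 10.6 in non-responders and from 4.25 through 7.49 to 19.4 in responders, and the groups overlapped. Rmrp ran from 3.75 through 4.95 to 6.59 in non-responders and from 4.22 through 8.02 to 36.9 in responders, with 5 of 8 responders above every non-responder. In both cases the highest responder was responder 1. The direction for Rpph1 depended on the denominator: the responder mean was below the non-responder mean as a share of the library, 0.507% ± 0.0743 (SD, n = 8) against 0.620% ± 0.160 (SD, n = 6), and above it per 1000 protein-coding counts, 9.09 ± 4.58 (SD, n = 8) against 7.22 ± 1.96 (SD, n = 6). Without responder 1 the latter ratio was 1.05. For Rmrp the responder mean was 2.23 times the non-responder mean, and 1.5 times without responder 1. In stable tumours both were low, at means of 4.61 ± 1.60 (SD, n = 6) for Rpph1 and 3.72 ± 1.57 (SD, n = 6) for Rmrp, and stable 5 had 2.08 and 1.02.

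**Figure D1:**
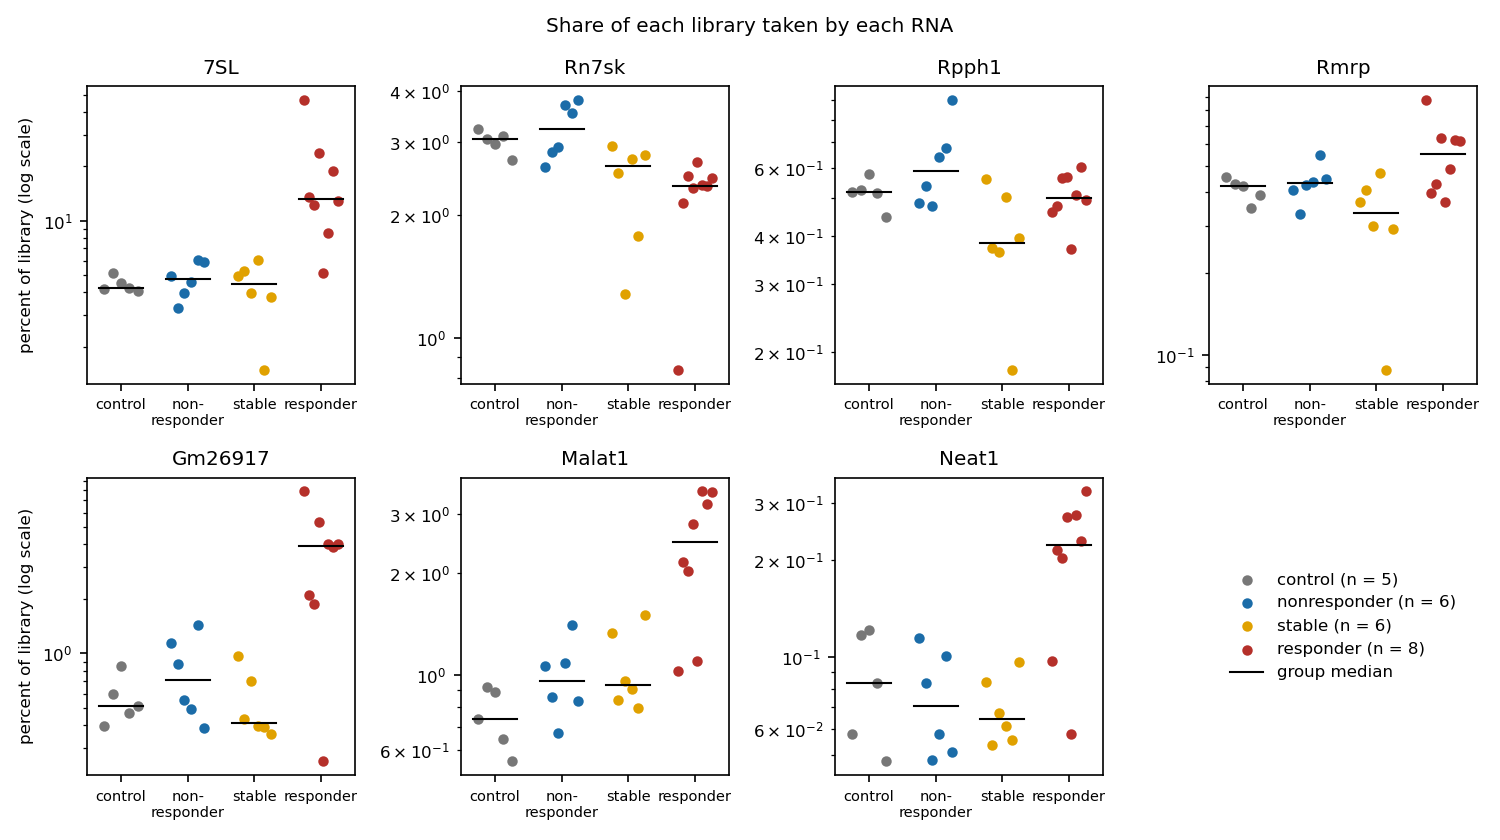
Percent of each library's counts taken by each of the 7 RNAs (vertical axis, log scale, different in each panel) in the 4 groups; each point is 1 tumour and the bar is the group median. Responders sit highest for 7SL (median 13.2%) and have the lowest median for Rn7sk (2.36%).

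The long RNAs were high in the same 7 responders. Malat1 held 8.38, 10.7, 10.2, 7.38 and 6.26 counts per 1000 protein-coding counts in controls, 7.64 through 11.1 to 16.9 in non-responders, 9.23 through 10.7 to 17.3 in stable tumours and 12.6 through 46.5 to 51.8 in responders. All responders lay above all controls, and all but responder 5, at 12.6, lay above every other tumour. Neat1 held 0.661, 1.36, 1.40, 0.949 and 0.539 in controls, 0.548 through 0.807 to 1.33 in non-responders, 0.620 through 0.738 to 1.11 in stable tumours and 0.665 through 3.80 to 4.99 in responders. Again responder 5 was the lowest responder and within the range of the other groups. The responder mean was 3.45 times the non-responder mean for Malat1 and 3.93 times for Neat1. Without responders 1 and 5 these ratios were 3.79 and 4.35. As a share of the library, responder 1 was below the highest non-responder for Malat1, at 1.03% against 1.40%, and for Neat1, at 0.0972% against 0.115%.

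Gm26917, the RNA beside ribosomal sequence, had the widest spread within responders. Its level per 1000 protein-coding counts was 4.52, 6.94, 9.86, 5.35 and 5.78 in controls, 4.52 through 8.10 to 17.3 in non-responders, 4.12 through 4.83 to 11.6 in stable tumours and 2.91 through 58.6 to 332 in responders. The lowest of all 25 tumours was responder 5 and the highest responder 1; the other 6 responders lay between 25.2 and 98.3, above every tumour of the other groups. The responder mean was 8.76 times the non-responder mean, 5.03 times without responder 1 and 5.82 times without responders 1 and 5. The other 3 groups had means of 6.49 ± 2.07 (SD, n = 5) in controls, 9.51 ± 4.99 (SD, n = 6) in non-responders and 6.29 ± 2.92 (SD, n = 6) in stable tumours.

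**Figure D2:**
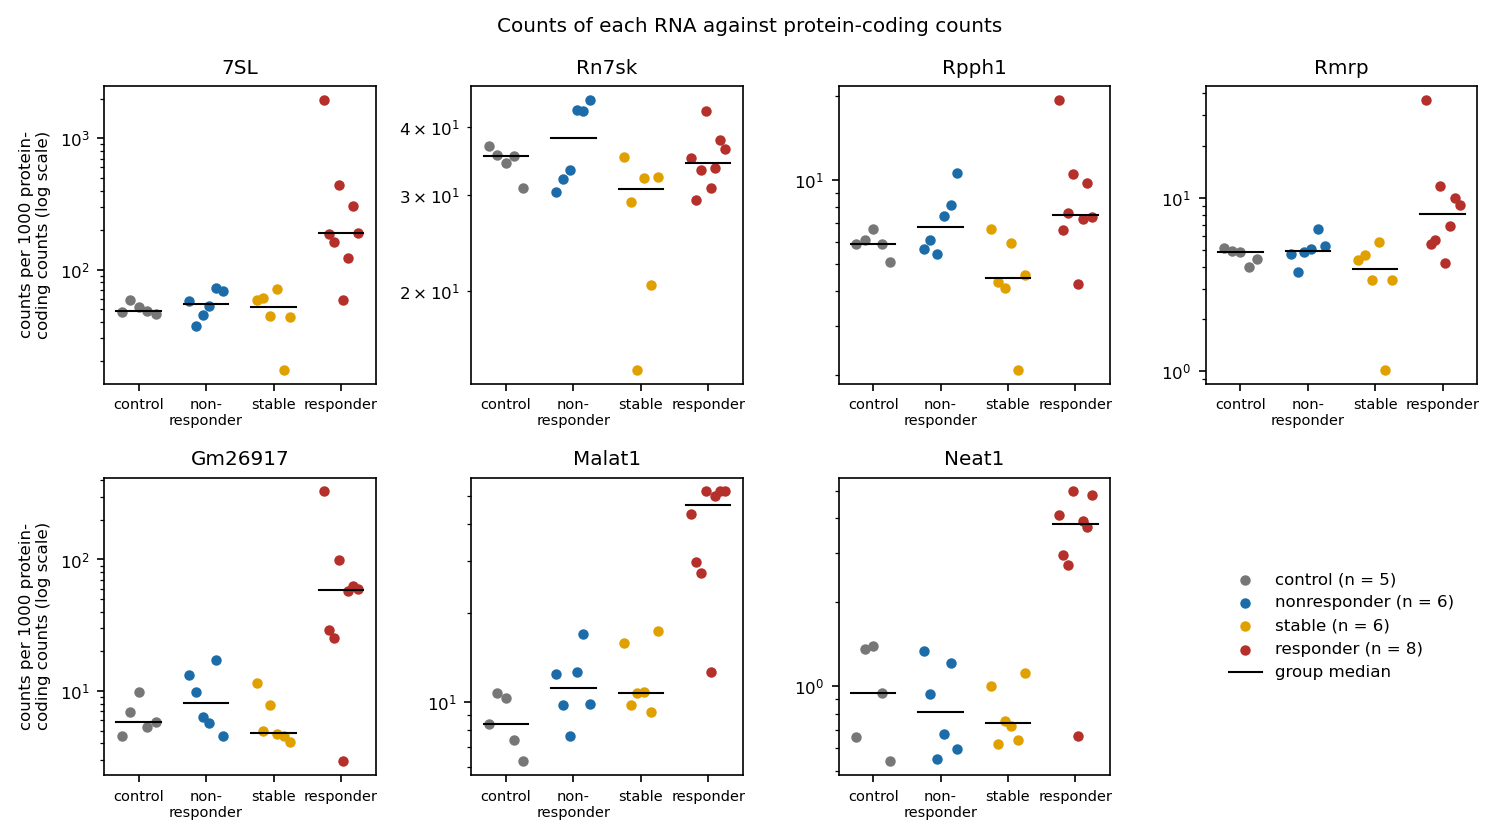
Counts of each RNA per 1000 protein-coding counts of the same library (vertical axis, log scale, different in each panel) by group; each point is 1 tumour and the bar is the group median. For 7SL, Gm26917, Malat1 and Neat1, 7 of 8 responders lie above all other tumours, while for Rn7sk the responders (29.4 to 42.8) lie within the range of the other groups.

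Per kilobase of exon and per 1000 protein-coding counts, the order in controls was 7SL (169 ± 17.5, SD, n = 5), Rn7sk (104 ± 6.84), Rpph1 (18.6 ± 1.79), Rmrp (16.6 ± 1.67), Gm26917 (1.95 ± 0.623), Malat1 (1.23 ± 0.267) and Neat1 (0.0472 ± 0.0189). Rpph1 and Rmrp overlapped, as did Gm26917 and Malat1; the other neighbours in this order did not. In responders the medians kept 7SL first (629) and Rn7sk next (104), Rmrp (28.5) stood above Rpph1 (23.5), and then came Gm26917 (17.6), Malat1 (6.66) and Neat1 (0.183). Together the 8 RNAs took 8.76% to 10.8% of the counts in controls and 9.92% to 58.2% in responders. As a part of all counts outside protein-coding genes, however, they took 75.3% to 79.5% in controls and 66.6% to 78.1% in responders. In stable 5 this part was 34.6%, the lowest of the stable tumours, and mitochondrial ribosomal RNA took 7.28% of that library.

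Ratios within a library do not depend on its depth or scaling. Their spread is small for RNAs that move together, but also for RNAs that each vary little. Against protein-coding counts, the log2 levels of Rn7sk and Rpph1 had SDs of only 0.34 and 0.59 over the 25 tumours. Over the 21 pairs, the SD of the log2 ratio over 25 tumours was smallest for Malat1 to Neat1 (0.38), Rpph1 to Rmrp (0.41) and Rn7sk to Rpph1 (0.45). It was largest for Rn7sk to Gm26917 (1.70), Rpph1 to Gm26917 (1.38) and 7SL to Rn7sk (1.33). Malat1 counts were 12.7, 7.85, 7.32, 7.78 and 11.6 times those of Neat1 in the controls. The ratio was 9.27 to 18.7 in non-responders, 14.3 to 15.8 in stable tumours and 10.0 to 18.9 in responders. Controls and stable tumours did not overlap. The SD of this log2 ratio, 0.38, was smaller than that of either log2 level against protein-coding counts, 0.99 for Malat1 and 1.09 for Neat1. The ratio of 7SL to Rn7sk was between 1.29 and 1.67 in controls, 1.15 to 1.89 in non-responders and 0.835 to 3.09 in stable tumours. In responders it was 1.89 in responder 5, 3.62 to 10.3 in 6 tumours and 56.2 in responder 1. Without responder 1 the SD of that log2 ratio was 0.97, and that of Rn7sk to Gm26917 was 1.42. It was then 0.33 for Rn7sk to Rpph1, 0.34 for Rpph1 to Rmrp and 0.39 for Malat1 to Neat1. The order of these narrowest pairs thus rested on responder 1. The ratio of 7SL to Rmrp, both products of RNA polymerase III, was between 9.22 and 12.1 in controls, 9.34 and 13.1 in non-responders, 12.8 and 16.9 in stable tumours and 13.9 and 53.5 in responders, so stable tumours lay above controls and overlapped with responders.

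**Figure D3:**
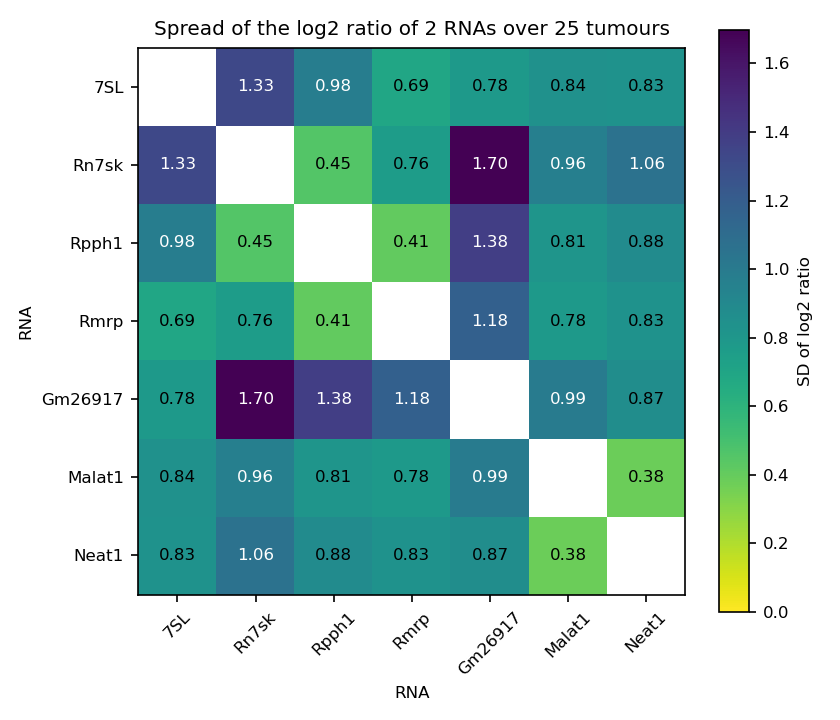
SD over 25 tumours of the log2 ratio of each pair of RNAs (both axes list the 7 RNAs; colour and number give the SD, in log2 units). A small value means that the counts of the pair kept nearly the same ratio, as for Malat1 and Neat1 (0.38); the row of Rn7sk holds the largest, 1.70 with Gm26917.

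In expression scaled by the trimmed mean of M values (TMM), the 3 genes whose pattern was most like that of each RNA came from different classes, with Pearson's r over the same 25 tumours, which share library and depth with the RNA. For 7SL these were the small nucleolar RNA genes Snord15b (r = 0.953) and Snord15a (0.942), with Gm25395 (0.953). For Rmrp they were Snora73b (0.967), Gm25395 (0.947) and Snora73a (0.923), and for Rpph1 Scarna6 (0.921), Snora73b (0.886) and Gm26448 (0.878). Gm26917 was most like its neighbour Gm42418 (0.984), then Gigyf1 (0.969) and Usp36 (0.967). For Malat1 they were Ogt (0.979), Rsrp1 (0.977) and Mdm4 (0.975), all coding for proteins, and for Neat1 Lncpint (0.948), Znrf1 (0.948) and Tet2 (0.941). Rn7sk had no gene as close: Tspan15 (0.725) and Afap1l2 (0.705) were among its nearest 3 of 10101 genes. Among the RNAs themselves, r was 0.922 for Malat1 with Neat1, 0.905 for 7SL with Rmrp and 0.099 for 7SL with Rn7sk.

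The split of 7SL counts between its identical copies differed between groups, with responder 1 apart from the other responders. Rn7s1 took 15.8%, 20.6%, 17.0%, 20.5% and 22.0% of them in controls and 15.3% through 17.2% to 19.4% in non-responders. In stable tumours it took 4.67% through 6.07% to 9.40%, and in responders 4.66% to 9.70% in 7 tumours and 22.8% in responder 1. Stable tumours and those 7 responders, responder 5 among them, did not overlap with controls and non-responders. The split followed a different order from the level of 7SL, which was alike in stable tumours and controls. Library number ran with the split. Libraries 1 to 11, the controls and non-responders, lay at 15.3% to 22.0%, and library 12, responder 1, at 22.8%. Libraries 13 to 25, the other responders and the stable tumours, lay at 4.66% to 9.70%. The break thus fell between libraries 12 and 13, inside the responder group, and the part of library number was not tested. The fitted log2 fold change of Rn7s1 between responders and non-responders, 2.67 ± 0.85 (SE), was 0.41 without responder 1, and that of Rn7s2 was 2.82 ± 0.56 with it and 1.94 without it.

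**Figure D4:**
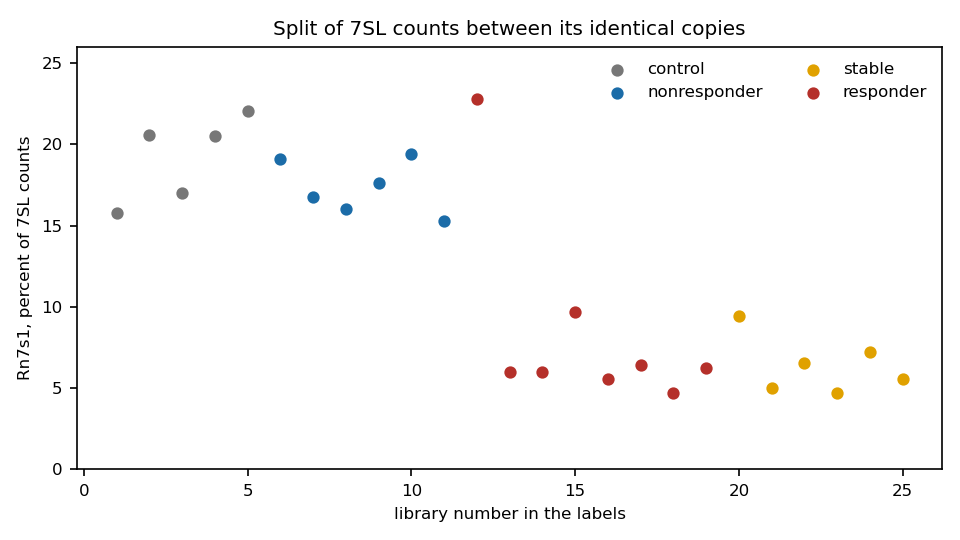
Percent of 7SL counts assigned to Rn7s1 (vertical axis) against library number in the labels (horizontal axis); each point is 1 tumour, coloured by group. Libraries 1 to 11 lie at 15.3% to 22.0%, library 12 (responder 1) at 22.8%, and libraries from 13 on at 4.66% to 9.70%.

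A single fit over all 25 tumours by edgeR's quasi-likelihood test gave 18031 genes tested. The adjusted p (Benjamini-Hochberg over all genes) was under 0.05 for 48.9% of them between responders and non-responders (25.2% higher and 23.8% lower in responders), and 6 of the 9 rows of the RNAs were called, a count that the choice of these RNAs fixes in part and from which nothing is read. Beside Rn7s1 and Rn7s2, given above, the called rows had fitted log2 fold changes of 2.99 ± 0.63 (SE) for Gm26917, 1.83 ± 0.30 for Neat1, 1.64 ± 0.25 for Malat1 and 1.06 ± 0.40 for the shorter model of Rmrp. The rows not called were Rn7sk, Rpph1 at 0.19 ± 0.26 and the longer model of Rmrp at 0.64 ± 0.31. Without responder 1 these values were 2.19 for Gm26917, 1.81 for Neat1, 1.63 for Malat1, 0.47 and 0.31 for the shorter and longer models of Rmrp and -0.054 for Rpph1, whose sign turned. Between responders and stable tumours 38.2% of all genes were called (20.5% higher, 17.8% lower) and 7 of 9 rows. Between responders and controls 65% were called (36.1% higher, 28.9% lower) and 6 of 9 rows. None of the 9 rows was called in the other comparisons by edgeR, where the unadjusted p was under 0.05 for 0 rows; DESeq2 called 2 between stable tumours and non-responders, 1 between stable tumours and controls and 0 between non-responders and controls. Of all genes, 14.9% were called between stable tumours and non-responders (7.08% higher, 7.86% lower), 41.8% between stable tumours and controls (22.2% higher, 19.6% lower) and 13.9% between non-responders and controls (10.6% higher, 3.29% lower).

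Among the protein partners and polymerase genes, more were lower than higher in responders. Of 77 partner genes tested, 14 were higher and 36 lower in responders than in non-responders, beside 25.2% and 23.8% of all genes, and their median log2 fold change was -0.34, against 0.05 for all genes. When protein-coding share was added to the fit as a covariate, 12 of the 77 were called, beside 10% of all genes, and of the genes named below these included Ccnt2, Cdk9, Larp7, Rpp14 and Polr1d alone. Against stable tumours 18 were higher and 28 lower, beside 20.5% and 17.8% of all genes. That count of 46 was 29 with no low-count filter, 27 with the 2 groups alone and 0 with the covariate by edgeR, where 10 had an unadjusted p under 0.05 and 0% of all genes were called; DESeq2 without the covariate called 46. Against controls 17 were higher and 45 lower, beside 36.1% and 28.9% of all genes, and 39 were called with the covariate, beside 45.3% of all genes. Between stable tumours and controls 4 were higher and 26 lower, beside 22.2% and 19.6% of all genes. Between stable tumours and non-responders 2 were higher and 9 lower, beside 7.08% and 7.86%. Between non-responders and controls 1 was higher and 1 lower, beside 10.6% and 3.29%. In either direction, 39.0%, 14.3% and 2.60% of the partner genes were called in these 3 comparisons, beside 41.8%, 14.9% and 13.9% of all genes.

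For the SRP, whose RNA is 7SL, 5 of 10 tested genes were lower in responders than in non-responders, beside 23.8% of all genes. The other 5 were not called, and the median log2 fold change of the 10 was -0.34. Srp14, a subunit that binds the Alu domain of 7SL RNA, had a TMM-scaled level of 37.2 through 44.3 to 61.5 CPM in non-responders and 20.6 through 24.5 to 57.7 CPM in responders. The groups overlapped in their highest tumours. Its log2 fold change was -0.57 ± 0.18 (SE, adjusted p = 0.0112). Srpr and Srprb, the chains of the SRP receptor, fell by 0.49 ± 0.11 (SE, adjusted p = 0.00146) and 0.47 ± 0.13 (SE, adjusted p = 0.00622) on the log2 scale, and Srp19 fell by 0.34 ± 0.11 (SE, adjusted p = 0.0169). Against controls, 9 of 10 were lower in responders, beside 28.9% of all genes, at a median of -0.60.

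Of the 7 genes of the 7SK particle, 2 were higher and 2 lower. Those that rose code for the kinase held by it: Ccnt2, a cyclin of P-TEFb, by 0.94 ± 0.14 (SE, adjusted p = 7.09e-05) and Cdk9, its kinase, by 0.86 ± 0.14 (SE, adjusted p = 0.000132) on the log2 scale. Cdk9 stood at 33.4 through 34.9 to 45.4 CPM in non-responders and 41.4 through 64.8 to 108 CPM in responders, with little overlap. Larp7, which binds the 3′ end of 7SK RNA and stabilises it, fell by 0.80 ± 0.14 (SE, adjusted p = 0.000174), and Hexim2, an inhibitor of P-TEFb, fell by 0.46 ± 0.19 (SE, adjusted p = 0.0471), a call lost with the 2 groups alone and without any of several single tumours, responder 1 among them. Larp7 ran from 25.8 through 27.3 to 37.6 CPM in non-responders and from 13.6 through 14.5 to 25.6 CPM in responders, which did not overlap. The 4 called of 7 are a share near the 48.9% called among all genes.

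Among the 10 tested protein genes of RNase P and RNase MRP, 8 were lower in responders than in non-responders, beside 23.8% of all genes. The median log2 fold change over the list was -0.60. Rpp14 had the largest fall, by 0.92 ± 0.16 (SE, adjusted p = 0.00018), from 14.1 through 17.0 to 25.5 CPM in non-responders to 6.24 through 9.12 to 14.6 CPM in responders. Rpp25l fell by 0.70 ± 0.15 (SE, adjusted p = 0.00104), Rpp21 by 0.48 ± 0.18 (SE, adjusted p = 0.031) and Rpp30 by 0.47 ± 0.19 (SE, adjusted p = 0.0426). The calls of Rpp21 and Rpp30 were lost with the 2 groups alone and without any of several single tumours, non-responder 3 among them. These are protein subunits shared by or related to those of both enzymes. In stable tumours 5 of 10 were lower than in controls, beside 19.6% of all genes.

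Of 9 paraspeckle genes, 2 were higher and 3 lower, a share near the 48.9% called among all genes. Pspc1, a core paraspeckle protein, rose by 0.64 ± 0.13 (SE, adjusted p = 0.000744) on the log2 scale. Hnrnpk, which favours the long form of Neat1, fell by 0.75 ± 0.15 (SE, adjusted p = 0.000587) and Nudt21, a 3′ processing factor that favours the short form, fell by 0.74 ± 0.15 (SE, adjusted p = 0.00061). Against stable tumours 6 of 9 were higher in responders and 3 lower, beside 20.5% and 17.8% of all genes.

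**Figure D5:**
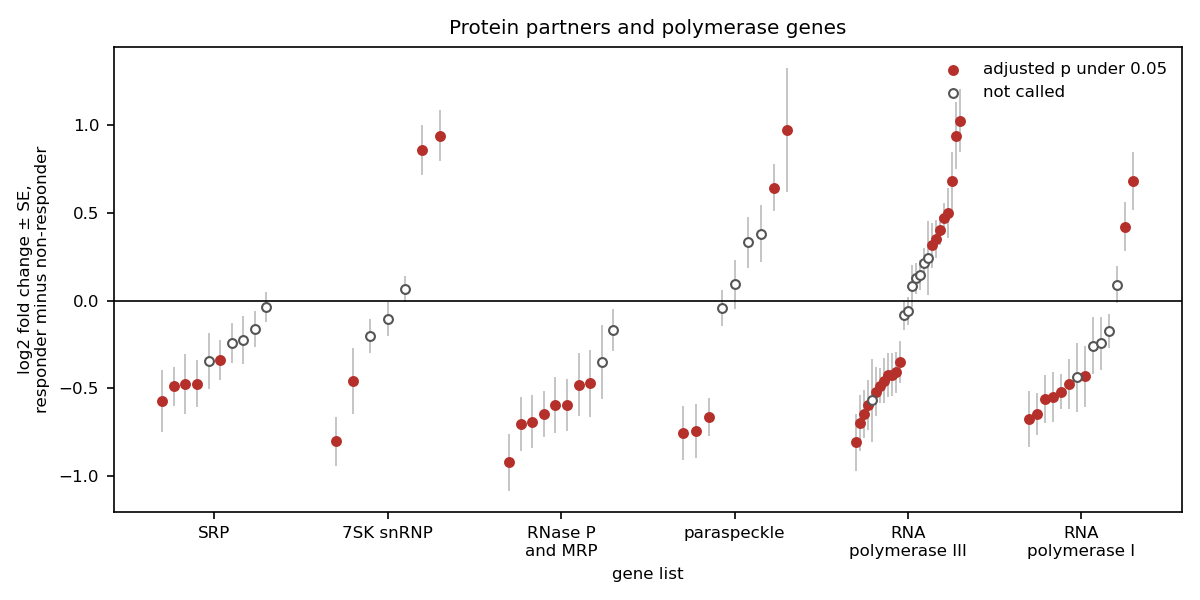
Log2 fold change of each tested partner gene between responders and non-responders (vertical axis, with its SE), grouped by list (horizontal axis); filled points have an adjusted p under 0.05 by edgeR. Of 77 genes, 14 filled points lie above 0 and 36 below, beside 25.2% and 23.8% of all genes.

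RNA polymerase III, which makes 7SL, Rn7sk, Rpph1 and Rmrp, had 8 of 27 genes higher and 11 lower, beside 25.2% and 23.8% of all genes. Snapc4 and Snapc3, subunits of the complex that binds upstream promoters such as those of Rn7sk and Rmrp, rose by 1.02 ± 0.18 (SE, adjusted p = 0.000192) and 0.94 ± 0.19 (SE, adjusted p = 0.000558). Gtf3c6, a subunit of TFIIIC, fell by 0.81 ± 0.16 (SE, adjusted p = 0.000566) and Gtf3a, the 5S gene factor, fell by 0.70 ± 0.16 (SE, adjusted p = 0.00136). RNA polymerase I, which transcribes ribosomal DNA, had 2 of 14 higher and 7 lower, beside the same shares of all genes. Taf1a rose by 0.68 ± 0.16 (SE, adjusted p = 0.00207) and Taf1c by 0.42 ± 0.14 (SE, adjusted p = 0.0177), both subunits of its selectivity factor, and Taf1c was at -0.030 with that covariate. The initiation factor Rrn3 fell by 0.68 ± 0.16 (SE, adjusted p = 0.00181) and Polr1d, a subunit shared with RNA polymerase III, fell by 0.65 ± 0.12 (SE, adjusted p = 0.00025).

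Other structural RNAs were counted the same way. Of 12 tested, 8 were higher in responders than in non-responders, beside 25.2% of all genes. These 8 include Lars2, a gene on the list that codes for a protein. The remaining 4, Terc, Rny1, Rny3 and Rnu11, were not called. Vaultrc5, a vault RNA also made by RNA polymerase III, rose by 4.64 ± 0.86 (SE, adjusted p = 0.000316) on the log2 scale, from 1.29 through 2.35 to 6.82 CPM in non-responders to 0.988 through 48.9 to 357 CPM in responders. The mitochondrial ribosomal RNAs mt-Rnr1 and mt-Rnr2 rose by 3.64 ± 0.76 (SE, adjusted p = 0.000729) and 3.42 ± 0.62 (SE, adjusted p = 0.000262). For mt-Rnr1 the range was 537 through 814 to 1165 CPM in non-responders and 842 through 5150 to 47570 CPM in responders. The changes of Vaultrc5, mt-Rnr1 and mt-Rnr2 include responder 1 and are not given without it. The Y RNAs, bound by Ro60, are also products of RNA polymerase III and were not called between responders and non-responders. Against controls, Rny3 fell by 2.05 ± 0.43 (SE, adjusted p = 0.000275) and Rny1 fell by 1.00 ± 0.38 (SE, adjusted p = 0.0228) in responders. In stable tumours they fell by 3.34 ± 0.50 (SE, adjusted p = 1.20e-05) and 2.72 ± 0.43 (SE, adjusted p = 1.85e-05) against controls. Rny3 stood at 95.5 to 214 CPM in controls and 2.06 to 21.2 CPM in stable tumours, with no overlap.

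Of 18 other long non-coding RNAs, 10 were higher and 1 was lower in responders than in non-responders, beside 25.2% and 23.8% of all genes. Firre, an RNA of the nucleus, rose by 1.69 ± 0.29 (SE, adjusted p = 0.00014) and Kcnq1ot1, an imprinted antisense RNA, by 0.99 ± 0.30 (SE, adjusted p = 0.0093). Snhg1, a small nucleolar RNA host gene, fell by 0.36 ± 0.15 (SE, adjusted p = 0.0472). Gas5, another host gene, was at -0.08 ± 0.11 (SE, adjusted p = 0.588) and Tug1 at -0.11 ± 0.08 (SE, adjusted p = 0.25); neither was called. These lists were picked with results of these libraries known, so their counts are not independent evidence of a direction.

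In the authors' RPKM table, which held 4 of the 8 RNAs, Malat1 stood at 1488 ± 412 (SD, n = 6) RPKM in non-responders and 4845 ± 1728 (SD, n = 8) in responders, and Neat1 at 38.5 ± 14.4 (SD, n = 6) and 142 ± 54.4 (SD, n = 8). Rmrp stood at 16464 ± 2904 and 33990 ± 31107 RPKM, and Rpph1 at 21948 ± 5935 and 25323 ± 11312. The lowest responder for Malat1 had 1630 RPKM, within the range of the non-responders, and the other directions were those of the counts set against protein-coding counts. The RPKM values come from the same libraries. Their scale relative to total counts was 3.37 times that of controls in responder 1 and 1.53 times in responder 4. Protein-coding shares there were 23.8% and 54.2%, so this match is no independent check.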

How the data were processed

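Bulk RNA sequencing of 25 tumours was deposited as 2 tables. The authors' estimated counts per gene (expected counts) were made with Trimmomatic, STAR 2.5.1 and RSEM 1.2.22 on build mm10, per the submitters' processing notes; 5.64% of the values were not whole, and all were rounded for the fits. The authors' deposited RPKM values per symbol were used for 4 of the 8 RNAs only. Each tumour's RPKM column matched its own count column best, in 25 of 25 cases, and the RPKM scale relative to total counts was 3.37 times that of the controls in responder 1. All 55450 gene IDs matched GENCODE mouse release 21 (GRCm38), which gave biotypes, positions and sequences.

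The members and all gene lists were chosen with earlier results of these data known. Shares used total counts, levels used protein-coding counts, and ratios used log2 of counts plus 0.5. The test was edgeR 4.0.16 (robust quasi-likelihood F test, two-sided, filterByExpr, TMM, 4 group means over all 25 tumours), with Benjamini-Hochberg adjustment over 18031 genes, called under 0.05. SE is the log2 fold change over the root of F. The fit was tested on simulated data. Named partner genes are the 2 called genes with the highest and the 2 with the lowest log2 fold change of each list between responders and non-responders; some named items and a sequence are not reported here. Most alike genes had a mean of at least 10 CPM, with a prior count of 2. Alternatives were RLE factors, DESeq2 1.42.0, no low-count filter, the 8 RNAs left out of library sizes, protein-coding share as a covariate, the 2 groups alone, and each tumour left out; leaving out responders 1 and 5, or stable 3 and 5, was chosen after seeing the data. Replicate numbers follow record order and pair no samples. No tumours were duplicates, with at least 15.7 times the chi-square that counting error gives per gene. The labels do not say more of how tumours were sampled, so p-values set group differences against the spread between these tumours only.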

Additional observations from a re-analysis of the deposited data

Results flagged for a closer look

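Responder 1 lay far from the other responders in 6 of 14 combinations of RNA and measure; over the 4 groups 56 were examined and no other was marked. Chance flags about 1 in 20 groups. Its 7SL share was 47.0%, with 23.9% in the next responder, and its Rn7sk share was 0.836%, with 2.14% next. Per 1000 protein-coding counts, responder 1 had 1973 for 7SL (next 440), 19.4 for Rpph1 (next 10.5), 36.9 for Rmrp (next 11.7) and 332 for Gm26917 (next 98.3). Its Rn7sk level of 35.1, Malat1 level of 43.1 and Neat1 level of 4.08 were not apart from the other responders.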

How the results depend on the processing

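Responder to non-responder differences in share, level and ratio kept their direction when any 1 tumour was left out, in log2 units; small stable to non-responder differences of 7SL (share), Malat1 and Neat1 did not. The 7SL range was 1.51 to 2.03 as a share and 1.91 to 3.12 against protein-coding counts. As a share, the log2 difference of Rpph1, -0.29, became 0.069 with the 8 RNAs out of the total and 0.19 with TMM-scaled libraries, and that of Rmrp, 0.35, became 0.81 and 1.01. The fitted changes between responders and non-responders moved with protein-coding share as a covariate, to -0.38 and -0.22 for the shorter and longer models of Rmrp, -0.59 for Rpph1, 0.48 for Gm26917, -1.61 for Rn7s1 and 0.62 for Rn7s2. The 8 RNAs made up 66.6% to 78.1% of the counts outside protein-coding genes in responders. Adjusting them for this covariate therefore partly adjusts them for themselves, and such values are no independent check on them. With that covariate Rn7s1 was at -0.036 against stable tumours and -1.82 against controls, the shorter Rmrp model at -0.36 against controls, Rpph1 at -0.013 against stable tumours, and the partner gene Taf1c at -0.030. For Rn7s1 between responders and non-responders, DESeq2 gave 0.35 and leaving out responder 1 gave 0.41.

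Partner genes called ranged, with 1 tumour left out, from 42 to 56 between responders and non-responders, 29 to 53 against stable tumours, 55 to 64 against controls, 6 to 15 between stable tumours and non-responders, 24 to 37 between stable tumours and controls and 0 to 8 between non-responders and controls. The 29 was without stable 4 (30 without stable 5), the 6 without non-responder 2 or 3 (7 without stable 2 or 3), and the 8 without non-responder 3. Between non-responders and controls the count was 0 by edgeR without control 1, control 5, non-responder 4 or non-responder 5, with 5, 6, 5 and 5 genes at an unadjusted p under 0.05; DESeq2 on all tumours called 4. Of the named partner genes, Srp19 lost its call without non-responder 3, and Hexim2, Rpp21 and Rpp30 lost theirs without any of several tumours. With the 2 groups alone Srp19, Hexim2, Rpp21, Rpp30 and Taf1c were not called, and with no filter Taf1c was not. With the covariate they were 12, 0 and 39 for responders against non-responders, stable tumours and controls, beside 10%, 0% and 45.3% of all genes; the 0 is by edgeR, with 10 at an unadjusted p under 0.05, and DESeq2 without the covariate called 46. Against stable tumours, no low-count filter gave 29 and the 2 groups alone 27. Between stable tumours and non-responders, no filter gave 7 and leaving out responders 1 and 5 gave 18. Between non-responders and controls, where 2 were called, DESeq2 and the covariate gave 4 each, no filter and the 2 groups alone 1 each, and leaving out responders 1 and 5 gave 5. The cause was not tested. No paired analysis was possible because replicate numbers follow record order. Depth limits little for the 8 RNAs, whose lowest count was 8412, but the copies of 7SL cannot be told apart at any depth. Some partner genes were low: in responders Hexim2 went down to 2.01 CPM and Rpp21 to 2.51 CPM. The part of depth in partner results was not tested.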
